A study of Mus musculus with 10 samples.

Results

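Chemokines are small secreted proteins that attract leukocytes, and their receptors are the surface proteins by which cells read them. The deposited values hold 59 genes of this kind among 21792 genes. They were chosen by name alone: every gene whose mouse symbol begins with Ccl, Cxcl, Ccr, Cxcr or Ackr and a number, together with *Cx3cl1*, *Cx3cr1*, *Xcl1*, *Xcr1*, *Pf4*, *Ppbp* and *Ccrl2*. Of the 59 members, 35 are ligands and 24 are receptors or atypical receptors. The ligands *Ccl19*, *Ccl21a*, *Ccl21b*, *Ccl26*, *Ccl27b* and *Cxcl15* were not analysed here.

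RNA was sequenced from the kidney cortex of 10 male C57BL/6 mice, 8 weeks old at the start and wild type in both groups. The 6 AAN mice (A483, B614, B630, B639, B642 and B666) had received 1 intraperitoneal dose of aristolochic acid, a plant nephrotoxin, at 5 mg/kg in PBS, a model of toxic tubular injury that goes on to fibrosis (aristolochic acid nephropathy). The 4 sham mice (B607, B634, B636 and H249) had received PBS. All were euthanized at day 28, and each library is 1 mouse. The values are FPKM, fragments per kilobase of gene and per M fragments, so levels can be compared between genes on this scale. A level is relative to all fragments of its library. The FPKM totals ran from 439662 to 715204 in sham and from 388126 to 561364 in AAN mice. The same FPKM is therefore not the same share of the total in each mouse.

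Chemokines are named by the spacing of their leading cysteines (CC, CXC, CX3C and XC), and most receptors are G protein-coupled and bind several ligands of 1 class. CXC ligands with the ELR motif act through CXCR2 on neutrophils, the interferon-induced CXCR3 ligands draw activated T cells and NK cells, and the ligands of CCR2 draw inflammatory monocytes. Atypical receptors bind chemokines without coupling to G proteins and can remove them. In injured kidney, tubular cells, resident macrophages and infiltrating leukocytes are all known sources of chemokines, and the mRNA of cortex does not tell them apart.

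Most of the chemokine system stood higher in the AAN kidneys. Of the 59 members, 54 averaged 0.1 FPKM or more across the 10 mice and were tested with limma on log2(FPKM + 0.1), with Benjamini-Hochberg adjustment over all 17129 genes tested. A gene is called higher or lower here where its adjusted p is 0.05 or less and its change is 2-fold or more. By this rule 47 members rose and 0 fell (limma), against 35.8% of all genes tested called higher and 3.43% called lower. In 48 of the 59 members (81.4%) the lowest AAN mouse stood above the highest sham mouse, against 33.5% of all genes listed, and in 0 members was every AAN mouse lower. In the other 11 members the groups overlapped. The filter let in 21 members through the AAN mice alone. Among the 33 members tested that averaged 0.1 FPKM or more in the sham mice by themselves, 26 rose (78.8%). Of the 15071 tested genes that did so, 30.5% rose, and the median log2 fold change was 4.44 for the members against 0.66. These genes also had to pass the filter over all 10 mice, so any that fell under it through low AAN values are not counted.

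Across all genes tested the median log2 fold change was 0.75, so an average gene also read higher in AAN, and a member is best judged against that shift. Only 7 members had a sham mean of at least 1 FPKM, against 41 with an AAN mean of at least 1. A sham mean of at least 5 FPKM was found for 3 members (*Cx3cl1*, *Cxcl16* and *Ackr3*) and an AAN mean of at least 5 for 30. With scaling between mice by the median of ratios, the median over all genes was 0.06 and the calls were 44 members higher and 2 lower (*Ackr3* and *Cxcl12*). With quantile normalization the median was -0.13 and the calls were 38 higher and 2 lower (*Ccl25* and *Cxcl12*). Of all genes called, 91.2% were higher as deposited, 64.4% with the median of ratios and 50.9% with quantile normalization.

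**Figure D1:**
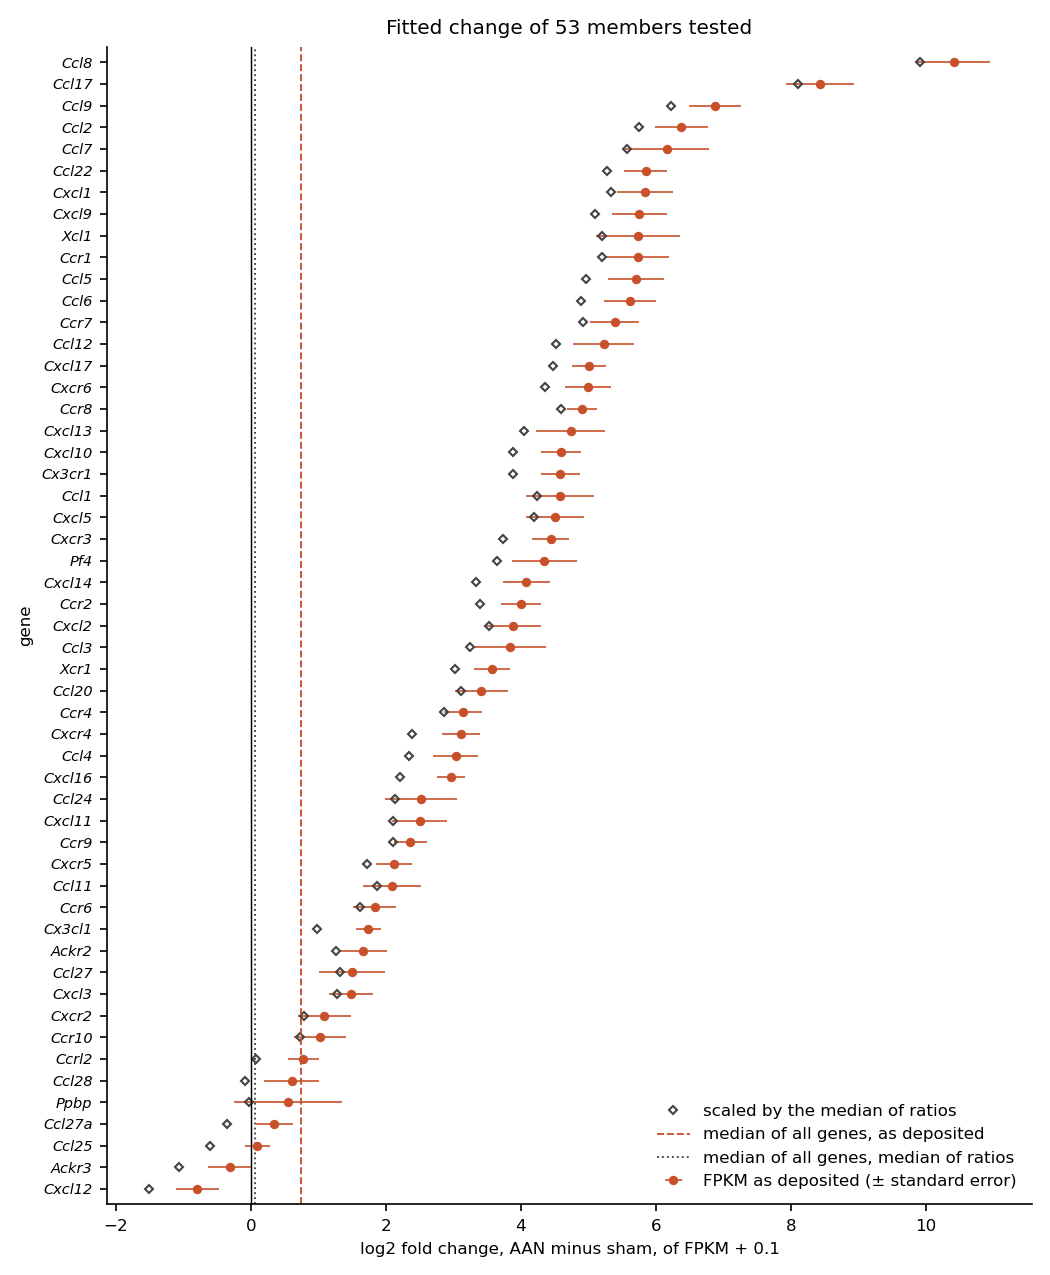
Log2 fold change of 53 of the 54 members tested, AAN minus sham, of FPKM + 0.1. Filled points with bars give the fitted change and its standard error for the FPKM as deposited, open diamonds the change with mice scaled by the median of ratios, and the vertical lines the median of all genes under each (0.75 and 0.06). The highest is *Ccl8* at 10.41 and the lowest *Cxcl12* at -0.79, and scaling moved all 53 to the left, which took *Ccl25*, *Ccl27a*, *Ccl28* and *Ppbp* below 0.

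The libraries held 15.7 to 17.4 M fragments in sham and 13.3 to 16.45 M in AAN mice, as recovered from low values of genes with 1 transcript. The share of mitochondrial genes in all FPKM was 39.5% to 61.4% for sham mice and 21.4% to 55.0% for AAN mice, and their part in the higher level of other genes was not tested. AAN mouse B614 stood apart: it was the lowest AAN mouse for 39 of the 59 members. Without it, 46 members were higher and 0 lower. Sham mouse B634 had the lowest *Ptprc* of all 10 mice, and without it 45 members were higher and 0 lower.

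The 4 genes listed here as CCR2 and monocyte-attracting ligands include the member with the largest fitted change, and all 4 rose. Which receptor each acts through in these kidneys was not tested. *Ccl8* (MCP-2), an attractant of monocytes and T cells, stood at 0.112, 0, 0.475 and 0.119 FPKM in the sham mice (B607, B634, B636 and H249, the order used throughout). In the 6 AAN mice its lowest, median and highest values were 86.8, 337 and 606.5 FPKM. By its mean it ranked 22 of the 35 ligands in sham cortex, with at most 3.98 fragments in a library, whereas it was the most abundant ligand of each AAN mouse, with at least 692 fragments. The means were 0.176 ± 0.207 FPKM (SD, n = 4) and 357 ± 169 FPKM (SD, n = 6), which gave a log2 fold change of 10.41 with a standard error of 0.54 (adjusted p = 1.26e-07, limma). At such low sham values the pseudocount sets the size: over the 19 alternatives the log2 fold change ranged from 8.06 to 11.69.

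*Ccl2* (MCP-1), the classical CCR2 ligand, had 0.209, 0.165, 0.191 and 0.222 FPKM in sham and 9.41, 31.8 and 40.6 FPKM (lowest, median, highest) in AAN mice, a log2 fold change of 6.38 (SE 0.39, adjusted p = 1.98e-07, limma). *Ccl7* (MCP-3) had 0, 0.473, 0.0758 and 0.303 FPKM in sham and 4.21, 25.9 and 33.9 FPKM in AAN mice, a change of 6.17 (SE 0.63, adjusted p = 6.63e-06, limma). The groups did not overlap for either gene, and B614 was the lowest AAN mouse for both. *Ccl12* (MCP-5), which mice have beside *Ccl2*, had 0.254, 0.491, 0.607 and 1.08 FPKM in sham and 7.36, 29.7 and 40.5 FPKM in AAN mice, a change of 5.23 (SE 0.45, adjusted p = 1.92e-06, limma). Within a mouse, *Ccl8* gained on *Ccl2*: the difference of their log2(FPKM + 0.1) values was on average -0.38 in sham and 3.65 in AAN mice. That shift of 4.03 (SE 0.55) was larger than the spread between mice, and all 6 AAN mice exceeded the highest sham mouse. The test was an exact permutation of the mice over their 210 divisions, two-sided, with p = 0.00476, the smallest this design allows, and an adjusted p of 0.00857 over 9 pairs of genes (exact permutation).

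All 5 CC ligands of the MIP-1 and RANTES type (*Ccl3*, *Ccl4*, *Ccl5*, *Ccl6* and *Ccl9*) rose. *Ccl5* (RANTES), made mainly by T cells and NK cells but also by injured tubule, was at 1.999, 0.841, 1.97 and 1.77 FPKM in sham and at 42.9, 74.9 and 176 FPKM in AAN mice, a log2 fold change of 5.71 (SE 0.41, adjusted p = 5.39e-07, limma). It was the ligand with the second-highest AAN mean, 100.2 ± 59.4 FPKM (SD, n = 6), and its spread was wide, with B639 and B642 at 176 and 175 FPKM and the other mice at 77.8 FPKM or less. *Ccl6*, a CCR1 ligand found in rodents, had 0.942, 1.21, 0.93 and 0.572 FPKM in sham and 23.8, 56.5 and 85.6 FPKM in AAN mice (log2 fold change 5.62, SE 0.38, adjusted p = 3.62e-07, limma). *Ccl9*, its neighbour with the same receptor, had 0.284, 0.176, 0.245 and 0.433 FPKM in sham and 16.4, 60.1 and 63.5 FPKM in AAN mice (log2 fold change 6.88, SE 0.38, adjusted p = 1.49e-07, limma). None of these groups overlapped.

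*Ccl3* (MIP-1α) and *Ccl4* (MIP-1β), typical products of activated macrophages and T cells, reached lower levels. *Ccl3* stood at 0.298, 0.741, 0 and 0.475 FPKM in sham and at 2.49, 5.66 and 8.93 FPKM in AAN mice, a log2 fold change of 3.85 (SE 0.52, adjusted p = 6.44e-05, limma). *Ccl4* stood at 0.779, 0.287, 0.46 and 1.01 FPKM in sham and at 3.09, 5.33 and 8.35 FPKM in AAN mice, a log2 fold change of 3.04 (SE 0.34, adjusted p = 1.27e-05, limma). *Ccl5* therefore moved away from *Ccl4*, which lies in the same gene cluster. Their difference within a mouse averaged 1.29 in sham and 3.97 in AAN mice on the log2 scale, a shift of 2.67 (SE 0.28, exact two-sided permutation test, p = 0.00476, adjusted p = 0.00857 over 9 pairs).

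Both CCR4 ligands rose. *Ccl17* (TARC), a product of dendritic cells that attracts Th2 and regulatory T cells, was listed at 0 in each sham mouse, where 3 fragments would be at most 0.439 FPKM. In AAN mice it reached 7.70, 39.4 and 89.1 FPKM, with B614 lowest and B639 highest, a mean at least 96.7-fold higher than that limit per library (adjusted p = 1.84e-07, limma). *Ccl22* (MDC), the other CCR4 ligand, stood at 0.137, 0.0757, 0.146 and 0.243 FPKM in sham and at 6.90, 15.1 and 24.9 FPKM in AAN mice, a log2 fold change of 5.85 (SE 0.32, adjusted p = 1.47e-07, limma). *Ccl17* passed *Ccl22* in every AAN mouse: the difference within a mouse was -1.28 on average in sham and 1.298 in AAN, a shift of 2.58 (SE 0.32, exact two-sided permutation test, p = 0.00476, adjusted p = 0.00857 over 9 pairs). With *Ccl17* at 0 in sham the pseudocount sets the size of that shift, which was 5.20 at 0.01 FPKM and 1.45 at 1 FPKM. The eosinophil-attracting CCR3 ligands *Ccl11* (eotaxin-1) and *Ccl24* (eotaxin-2) were called higher but stayed low, at AAN means of 0.411 ± 0.355 and 0.834 ± 0.768 FPKM (SD, n = 6), and neither call held with quantile normalization.

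The remaining CC ligands split. *Ccl1*, a CCR8 ligand, rose from a mean of 0.0167 to 3.24 FPKM, and *Ccl20*, the CCR6 ligand that draws Th17 cells and dendritic cells, from 0.00615 to 1.19 FPKM. *Ccl25* (0.957 and 1.04 FPKM in sham and AAN), *Ccl27a* (0.952 and 1.22 FPKM) and *Ccl28* (0.879 and 1.32 FPKM), which home lymphocytes to gut, skin and mucosal epithelia, had overlapping groups and were not called. Their log2 fold changes of 0.10, 0.35 and 0.61 lay under the median of all genes and turned negative with the median of ratios and with quantile normalization. *Ccl27a* shares 69.2% of its 50-base stretches with other genes, among them a family of near-identical copies, so its value is uncertain. The listed copy *Ccl27*, on an unplaced scaffold, had an AAN mean of 0.248 FPKM and was at 0 in all sham mice and in B614.

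**Figure D2:**
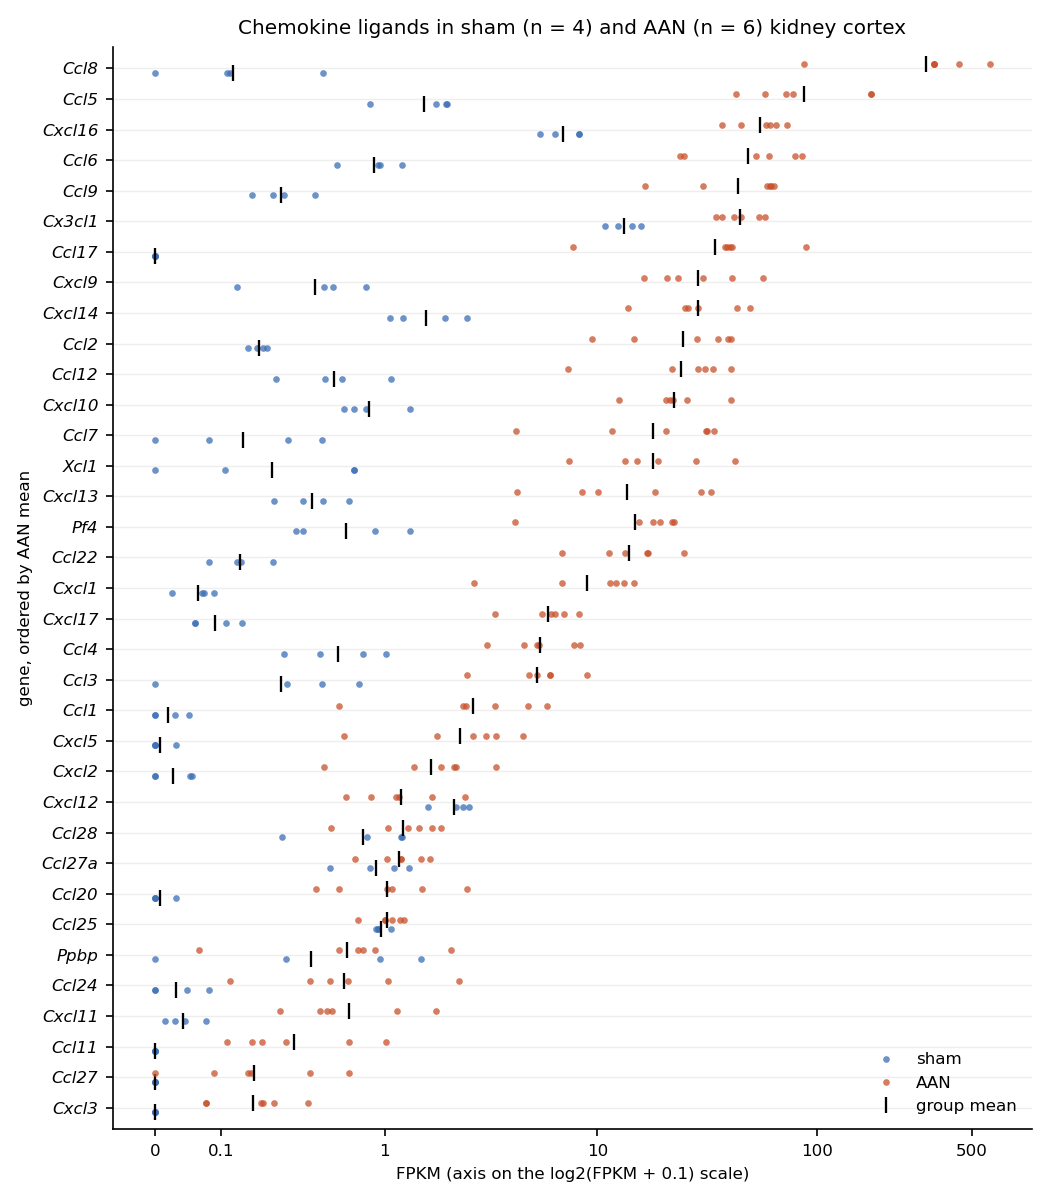
FPKM of the 35 chemokine ligands in each mouse, on an axis of log2(FPKM + 0.1). Blue points are the 4 sham mice, red points the 6 AAN mice, and black ticks the group means on the log2 scale. *Ccl8* is at the top with AAN values from 86.8 to 606.5 FPKM and no sham value above 0.475, and the groups touch or overlap in 6 ligands (*Cxcl12*, *Ccl25*, *Ccl27*, *Ccl27a*, *Ccl28* and *Ppbp*).

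The CXCR3 ligands rose, all 3 of them. *Cxcl9* (MIG), which depends closely on interferon gamma, had 0.543, 0.136, 0.801 and 0.484 FPKM in sham and 16.4, 26.7 and 56.6 FPKM in AAN mice, a log2 fold change of 5.76 (SE 0.41, adjusted p = 4.51e-07, limma). *Cxcl10* (IP-10), which also answers type I interferon and NF-kappaB, had 0.803, 0.622, 0.701 and 1.34 FPKM in sham and 12.5, 21.8 and 40.7 FPKM in AAN mice, a log2 fold change of 4.60 (SE 0.30, adjusted p = 2.61e-07, limma). *Cxcl11* reached only 0.784 ± 0.570 FPKM (SD, n = 6). *Cxcl10* and *Cxcl11* overlap *Art3*, and since use of strand is not stated their fragments cannot be told from those of that gene. The difference *Cxcl9* minus *Cxcl10* within a mouse shifted by 1.16 (SE 0.44, exact two-sided permutation test, p = 0.0143, adjusted p = 0.0214 over 9 pairs), with 4 of 6 AAN mice beyond the sham range. It was no longer past 0.05 when any of B634, H249, B630, B639, B642 or B666 was left out, with shifts of 0.89, 0.996, 1.08, 1.05, 1.13 and 1.18.

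Of the 5 ELR ligands listed, which act on neutrophils through CXCR2, 4 rose, against 35.8% of all genes tested. All 4 passed the filter through the AAN mice alone, which favours a call. *Ppbp*, which also reached 0.1 FPKM in the sham mice by themselves, was not called. With quantile normalization 3 of the 5 were called. *Cxcl1* (KC) had 0.0202, 0.067, 0.086 and 0.0644 FPKM in sham and 2.68, 11.8 and 14.6 FPKM in AAN mice, a log2 fold change of 5.84 (SE 0.42, adjusted p = 4.86e-07, limma). *Cxcl2* (MIP-2) had 0.0443, 0, 0 and 0.0471 FPKM in sham and 0.482, 2.02 and 3.41 FPKM in AAN mice, a log2 fold change of 3.88 (SE 0.42, adjusted p = 1.07e-05, limma). *Cxcl1* was the only ELR ligand with an AAN mean above 5 FPKM. *Cxcl5* (LIX) reached a mean of 2.68 ± 1.36 FPKM and *Cxcl3* one of 0.199 ± 0.121 FPKM in AAN (SD, n = 6). The shift of *Cxcl1* minus *Cxcl2* within a mouse was 1.96 (SE 0.28, exact two-sided permutation test, p = 0.00476, adjusted p = 0.00857 over 9 pairs), but 0.98 and not past 0.05 with a pseudocount of 0.01 FPKM (adjusted p = 0.349, same permutation test). *Ppbp*, a platelet ligand, had 0, 0.291, 1.51 and 0.952 FPKM in sham and 0.0588 to 2.09 FPKM in AAN mice, and its groups overlapped.

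Of the other CXC ligands 5 of 6 rose. *Pf4* (CXCL4), stored in platelets and also made by macrophages, had 0.336, 0.371, 0.894 and 1.34 FPKM in sham and 4.17, 18.6 and 22.3 FPKM in AAN mice, a log2 fold change of 4.35 (SE 0.49, adjusted p = 1.36e-05, limma). The other platelet markers did not go with it: *Itga2b*, *Gp9* and *Ppbp* were not called, and *Gp1ba* had an AAN mean of 0.00414 FPKM. *Cxcl13*, the CXCR5 ligand that gathers B cells in lymphoid follicles, had 0.248, 0.658, 0.475 and 0.369 FPKM in sham and 4.26, 14.1 and 32.9 FPKM in AAN mice, a log2 fold change of 4.74 (SE 0.52, adjusted p = 1.14e-05, limma). *Cxcl14*, an epithelial and stromal chemokine, had 1.07, 2.49, 1.23 and 1.96 FPKM in sham and 13.8, 27.4 and 49.4 FPKM in AAN mice, a log2 fold change of 4.08 (SE 0.34, adjusted p = 1.54e-06, limma). *Cxcl17*, a mucosal chemokine, had 0.149, 0.109, 0.0527 and 0.0526 FPKM in sham and 3.37, 6.26 and 8.21 FPKM in AAN mice, a log2 fold change of 5.01 (SE 0.26, adjusted p = 1.26e-07, limma). None of these 4 had overlapping groups.

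*Cxcl16* and *Cx3cl1* are the chemokines made as membrane-bound proteins, and the sham cortex already held them. *Cxcl16*, the CXCR6 ligand, had 8.20, 5.46, 6.39 and 8.26 FPKM in sham and 36.9, 59.99 and 72.5 FPKM in AAN mice, a ratio of means of 7.998 and a log2 fold change of 2.97 (SE 0.21, adjusted p = 5.06e-07, limma). *Cx3cl1* (fractalkine), which tethers cells that carry CX3CR1, had 15.8, 12.4, 10.9 and 14.4 FPKM in sham and 34.8, 43.6 and 57.6 FPKM in AAN mice, a ratio of means of 3.38 and a log2 fold change of 1.74 (SE 0.19, adjusted p = 9.08e-06, limma). With the median of ratios the change of *Cx3cl1* was 0.98, under the 2-fold limit. *Cxcl16* gained on *Cx3cl1* within a mouse, by 1.23 (SE 0.17, exact two-sided permutation test, p = 0.00476, adjusted p = 0.00857 over 9 pairs). *Xcl1* (lymphotactin), the XCR1 ligand made by T cells and NK cells, had 0.109, 0, 0.697 and 0.696 FPKM in sham and 7.43, 17.0 and 42.2 FPKM in AAN mice, a log2 fold change of 5.74 (SE 0.62, adjusted p = 1.06e-05, limma).

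*Cxcl12* (SDF-1), the CXCR4 ligand of stromal cells that keeps leukocytes and progenitors in place, went the other way. It had 2.39, 2.20, 1.62 and 2.54 FPKM in sham and 0.631, 1.15 and 2.43 FPKM in AAN mice, a log2 fold change of -0.79 (SE 0.32, adjusted p = 0.0464, limma). The groups overlapped, since B614 at 2.43 FPKM and B630 at 1.71 FPKM lay within the sham range, and the change was under the 2-fold limit. Over the 19 alternatives its log2 fold change was -1.81 to -0.45 with an adjusted p of 0.00141 to 0.266 (limma), and it was called lower with the median of ratios and with quantile normalization. By group mean it ranked 3 of the 35 ligands in sham and 25 in AAN mice.

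The order of the ligands thus differed between the groups. *Cx3cl1* led in 4 of 4 sham mice, with 32.0% to 42.2% of the summed ligand FPKM, followed by *Cxcl16* with 16.9% to 21.9%. *Ccl8* led in 6 of 6 AAN mice with 23.7% to 41.7%, *Ccl5* took 5.97% to 15.3% and *Cx3cl1* took 3.03% to 10.1%. The sum of all ligands was 32.3 to 40.9 FPKM in sham and 366 to 1453 FPKM in AAN mice, with B614 lowest and the other AAN mice at 809 FPKM or more. Behind *Ccl8* the AAN means of *Ccl5*, *Cxcl16*, *Ccl6*, *Ccl9*, *Cx3cl1* and *Ccl17* lay between 42.4 and 100.2 FPKM with overlapping ranges over mice, so that neighbours in that order did not differ beyond their spread.

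**Figure D3:**
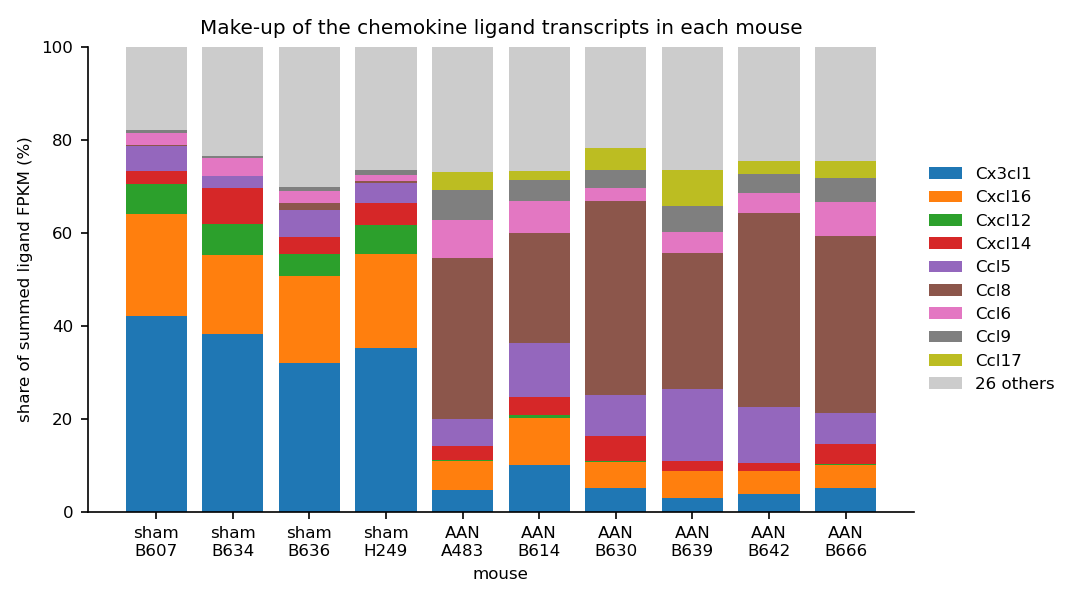
Share of each ligand in the summed FPKM of the 35 ligands, in percent, for each of the 10 mice. Colours are the 9 ligands that lead in either group and grey the 26 others. *Cx3cl1* fills 32.0% to 42.2% of the sham bars and *Ccl8* 23.7% to 41.7% of the AAN bars, while B614 keeps the largest *Cx3cl1* share of the AAN mice, 10.1%.

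Many ligand genes lie in clusters, and most genes of each cluster rose, against 35.8% of all genes tested. Of the genes below, *Ccl11*, *Ccl1*, *Cxcl5*, *Cxcl3*, *Cxcl1*, *Cxcl2*, *Cxcl11* and *Ccl17* passed the filter through the AAN mice alone, which favours a call. With quantile normalization *Ccl11* (0.98) and *Cxcl3* (0.41) were under the 2-fold limit. On chromosome 11 of GRCm38 from 82035571 to 82305690, *Ccl2*, *Ccl7*, *Ccl11*, *Ccl12*, *Ccl8* and *Ccl1* all rose, with log2 fold changes of 2.09 to 10.41. The neighbouring cluster from 83525778 to 83664683 holds *Ccl5*, *Ccl9*, *Ccl6*, *Ccl3* and *Ccl4*, and all 5 rose by 3.04 to 6.88. On chromosome 5 from 90759360 to 90905938, 5 of 6 genes rose (*Cxcl5*, *Pf4*, *Cxcl3*, *Cxcl1* and *Cxcl2*), and *Ppbp* between them was not called. The cluster of *Cxcl9*, *Cxcl10* and *Cxcl11* on the same chromosome (92321347 to 92365485) and that of *Ccl22*, *Cx3cl1* and *Ccl17* on chromosome 8 (94745590 to 94812036) rose in all 3 genes each, though *Cx3cl1* was under the 2-fold limit with the median of ratios.

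The 250 bases before the RefSeq transcription starts of the ligands (GRCm38.p6) were searched on both strands, whether or not the ligand rose. The search used letter patterns modelled on 4 known elements. A free base in a pattern takes any letter, so a match is to the pattern and need not be the element itself. Windows were found for 24 of the 35 ligands, 27 windows in all. The NF-kappaB pattern (GGGA, any base, TT, any base, CC) was in 4 of 27 ligand windows (14.8%) and in 0.98% of all 32851 promoter windows, and the interferon response element (GAAA, any 2 bases, GAAA) in 2 (7.41%, against 2.98%). The AP-1 pattern (TGA, any base, TCA) was in 4 (14.8%, against 6.75%) and the TATA box letters TATAAA were in 9 (33.3%, against 12.4%). The NF-kappaB matches were in *Cxcl10* and in the neighbours *Cxcl1*, *Cxcl2* and *Cxcl3*. Of the ligands with an AP-1 match *Ccl27a* and *Ppbp* were not called, and of those with the TATA letters *Ccl25* and *Ppbp* were not. In 23 receptor windows searched in the same way, the 4 patterns were in 2, 0, 2 and 5 windows, in the order above. A match is a description of the letters and no evidence of binding. The windows of the 4 risen ligands with the most matches among the first 3 elements (equal numbers taken by name) are shown, so that the letters found can be seen in their context. Each is 1 unbroken run, 5′ to 3′ on the strand of the gene, with the letters that match the first 3 elements in capitals. TATA matches, of which the *Ccl9* window holds 3, are left in lower case.
*Cxcl10* (chr5:92348890-92349139, minus strand): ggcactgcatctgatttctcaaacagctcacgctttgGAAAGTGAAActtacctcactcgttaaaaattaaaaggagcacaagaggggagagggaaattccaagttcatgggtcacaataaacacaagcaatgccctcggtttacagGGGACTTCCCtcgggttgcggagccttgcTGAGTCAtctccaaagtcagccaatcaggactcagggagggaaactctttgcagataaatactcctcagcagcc
*Ccl9* (chr11:83578637-83578886, minus strand): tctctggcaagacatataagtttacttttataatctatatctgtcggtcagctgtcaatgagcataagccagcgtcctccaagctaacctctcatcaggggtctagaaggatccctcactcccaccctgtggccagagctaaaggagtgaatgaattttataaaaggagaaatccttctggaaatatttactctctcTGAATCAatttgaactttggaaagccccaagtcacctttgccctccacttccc
*Cxcl1* (chr5:90890995-90891244, plus strand): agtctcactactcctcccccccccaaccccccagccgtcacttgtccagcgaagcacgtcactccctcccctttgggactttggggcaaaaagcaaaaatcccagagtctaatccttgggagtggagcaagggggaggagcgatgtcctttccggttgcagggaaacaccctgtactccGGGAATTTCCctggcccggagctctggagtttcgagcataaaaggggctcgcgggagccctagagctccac
*Cxcl14* (chr13:56296552-56296801, minus strand): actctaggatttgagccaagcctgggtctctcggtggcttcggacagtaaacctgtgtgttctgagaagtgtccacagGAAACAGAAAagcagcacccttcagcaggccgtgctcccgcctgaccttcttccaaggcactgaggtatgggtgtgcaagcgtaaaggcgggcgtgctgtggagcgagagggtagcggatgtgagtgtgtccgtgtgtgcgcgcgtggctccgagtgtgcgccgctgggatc

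In the *Cxcl10* window the capitals mark, from left to right, an interferon response element, an NF-kappaB and an AP-1 match, which begin 213, 103 and 74 bases before the start. In that of *Ccl9* they mark an AP-1 match that begins 53 bases before the start, in that of *Cxcl1* an NF-kappaB match and in that of *Cxcl14* an interferon response element that begins 172 bases before the start. *Cxcl1*, *Cxcl2* and *Cxcl3*, neighbours on chromosome 5, carry the same 10 letters GGGAATTTCC, which begin 71, 97 and 73 bases before their starts. Their AAN means nevertheless spanned 0.199 FPKM for *Cxcl3* to 10.2 FPKM for *Cxcl1*.

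Most signalling receptors were higher as well. Of the 11 CC receptors 9 were tested and 9 rose, of the 6 CXC receptors 5 were tested and 5 rose, and *Cx3cr1* and *Xcr1* rose. Of these 16 tested receptors, 8 passed the filter through the AAN mice alone, which favours a call. The other 8 also reached 0.1 FPKM in the sham mice by themselves and 8 of 8 rose, against 30.5% of the tested genes that did so. Of the atypical receptors 1 of 3 tested rose, near the 35.8% of all genes tested. In bulk tissue, more cells of a type and more RNA per cell cannot be told apart. Pan-leukocyte markers moved with the receptors: 6 of 6 were higher in AAN (limma), their summed level was 7.65 to 14.0 FPKM in sham and 138 to 419 FPKM in AAN mice, and *Ptprc* (CD45), which all leukocytes carry, had 0.171 to 0.326 FPKM in sham and 4.18 to 6.93 FPKM in AAN mice.

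Among CC receptors, *Ccr1*, of monocytes and neutrophils, had 0, 0.0669, 0.129 and 0.15 FPKM in sham and 3.08, 11.2 and 16.8 FPKM in AAN mice, a log2 fold change of 5.73 (SE 0.46, adjusted p = 1.14e-06, limma). B614 was the lowest AAN mouse, and the groups did not overlap. *Ccr7*, which guides dendritic cells and naive T cells to lymph nodes, had 0.202, 0, 0.0614 and 0.184 FPKM in sham and 5.41, 7.03 and 16.3 FPKM in AAN mice, a log2 fold change of 5.39 (SE 0.36, adjusted p = 3.57e-07, limma). *Ccr2*, of inflammatory monocytes, had 0.216, 0.108, 0.285 and 0.212 FPKM in sham and 3.28, 4.04 and 7.94 FPKM in AAN mice, a log2 fold change of 4.00 (SE 0.30, adjusted p = 6.57e-07, limma). The AAN mean of *Ccr2*, 5.01 ± 2.12 FPKM (SD, n = 6), was under those of *Ccr1* and *Ccr7*, but the ranges over mice overlapped.

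*Ccr8*, of regulatory and Th2 T cells, was listed at 0 in all sham mice and had 2.15, 3.01 and 4.17 FPKM in AAN mice, a mean at least 15.5-fold higher than the 0.192 FPKM that 3 fragments per library allow (adjusted p = 8.29e-08, limma). *Ccr4* and *Ccr6* were also at 0 in all sham mice and had AAN means of 0.825 and 0.284 FPKM. *Ccr9* and *Ccr10* stayed under 0.5 FPKM in both groups on average, and the call of *Ccr10* was lost with both the median of ratios and quantile normalization, where its change turned negative (-0.13). *Ccr3* and *Ccr1l1* were under the filter, with AAN means of 0.128 and 0.130 FPKM and 0 in the sham mice.

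The CXC receptors were led by *Cxcr3*, of activated T cells and NK cells, with 0.99, 0.401, 1.05 and 0.911 FPKM in sham and 13.4, 18.4 and 30.9 FPKM in AAN mice, a log2 fold change of 4.44 (SE 0.28, adjusted p = 2.31e-07, limma). *Cxcr6*, of memory T cells, NKT cells and resident lymphocytes, had 0.664, 0.133, 0.16 and 0.481 FPKM in sham and 8.82, 12.6 and 18.5 FPKM in AAN mice, a log2 fold change of 4.99 (SE 0.35, adjusted p = 4.13e-07, limma). The ligands of both, *Cxcl9*, *Cxcl10* and *Cxcl16*, were among the abundant ligands above. *Cxcr4*, the receptor of *Cxcl12*, had 1.46, 0.839, 1.75 and 1.39 FPKM in sham and 6.92, 12.2 and 19.0 FPKM in AAN mice, a log2 fold change of 3.12 (SE 0.28, adjusted p = 2.42e-06, limma). *Cxcr4* rose while its ligand did not.

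The neutrophil receptors stayed low. *Cxcr2*, the receptor of the ELR ligands, averaged 0.0292 FPKM among sham mice and 0.206 ± 0.159 FPKM among AAN mice (SD, n = 6), its groups overlapped, its call was lost with the median of ratios, and its log2 fold change turned negative with quantile normalization (-0.08). *Cxcr1* was at or under 0.029 FPKM in every mouse. Among neutrophil markers, *S100a8*, *S100a9* and *Csf3r* were called higher (limma; 2 of the list with the median of ratios and 1 with quantile normalization), but *Ly6g* was at 0 in sham and at a mean of 0.0403 FPKM in AAN mice. The list summed to 0.228 to 2.35 FPKM in sham and 2.64 to 15.7 FPKM in AAN mice, and 1 of its 5 listed genes had groups that did not overlap. *Cxcr5*, the receptor of *Cxcl13*, reached 0.530 ± 0.135 FPKM in AAN (SD, n = 6), beside B cell markers that summed to 0.673 to 1.28 FPKM in sham and 3.82 to 9.53 FPKM in AAN mice.

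*Cx3cr1*, of monocytes, macrophages and resident phagocytes, had 1.19, 0.403, 0.609 and 0.819 FPKM in sham and 11.7, 20.2 and 28.0 FPKM in AAN mice, a log2 fold change of 4.59 (SE 0.28, adjusted p = 2.14e-07, limma). The annotation of *Cx3cr1* overlaps 5 listed genes, and how shared fragments were counted is not stated. Of the 59 members 45 overlap no listed gene. The same limit holds for the others, among them *Cxcl16*, *Ccl6*, *Cxcl17*, *Cxcr6* and *Ccr9*. *Xcr1*, which marks cross-presenting dendritic cells, averaged 0.160 ± 0.107 FPKM among sham mice (SD, n = 4), with 2.80 ± 0.399 FPKM among AAN mice (SD, n = 6). The difference *Ccr2* minus *Cx3cr1* within a mouse shifted by -0.58 (SE 0.32, exact two-sided permutation test, p = 0.124, adjusted p = 0.139 over 9 pairs), which does not hold up against the spread between mice.

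**Figure D4:**
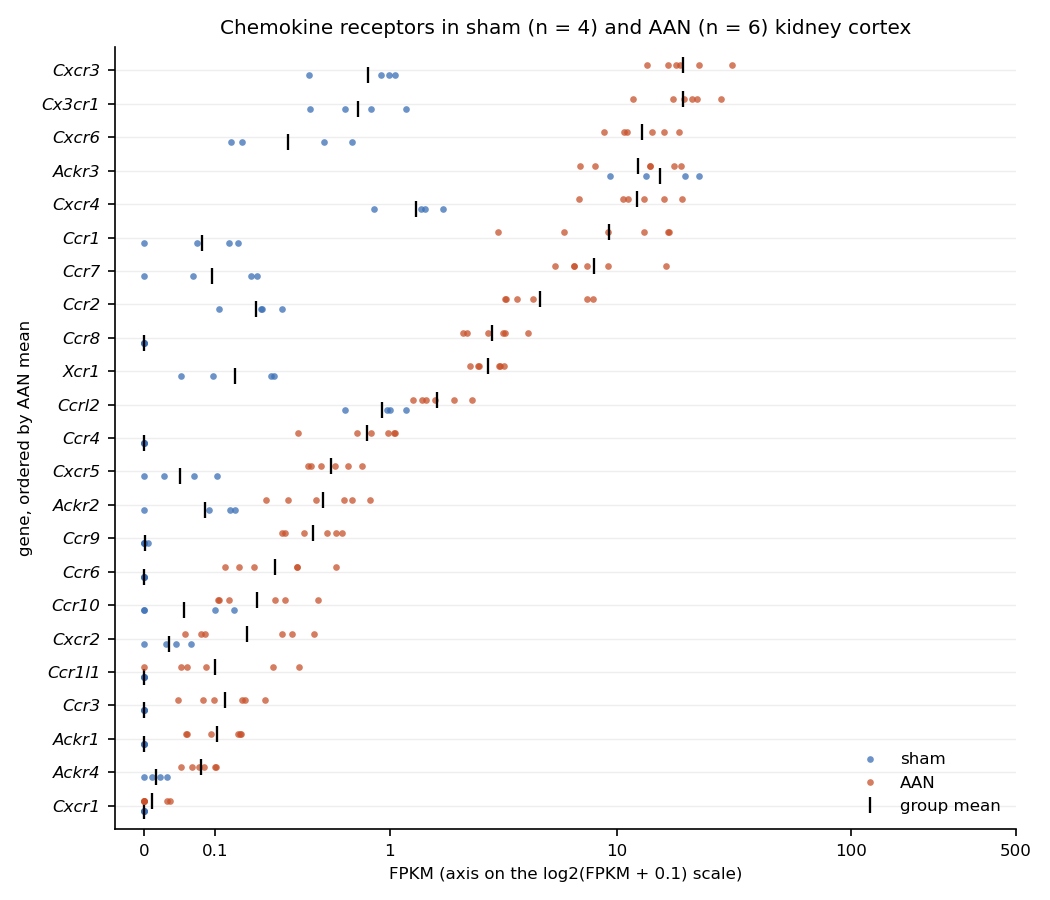
FPKM of 23 of the 24 chemokine receptors in each mouse, on an axis of log2(FPKM + 0.1), with sham mice in blue, AAN mice in red and black ticks for the group means on the log2 scale. *Cxcr3* and *Cx3cr1* lead in AAN mice with medians of 18.4 and 20.2 FPKM, whereas *Ackr3*, at 9.39 to 22.6 FPKM in sham and 6.93 to 18.8 FPKM in AAN mice, overlaps.

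The atypical receptors were mixed. In 4 of the 5 every AAN mouse stood above every sham mouse, against 33.5% of all genes listed, and only *Ackr3* overlapped. Of these 4, *Ackr1* was at 0 in all sham mice and *Ackr4* had a sham mean of 0.0123 FPKM. *Ackr2*, with a sham mean of 0.0904 FPKM, passed the filter through the AAN mice alone. The 1 called of 3 tested is near the 35.8% of all genes tested called higher. *Ackr3* (CXCR7), an endothelial and stromal scavenger of CXCL12, had 22.6, 9.39, 13.3 and 19.7 FPKM in sham and 6.93, 13.9 and 18.8 FPKM in AAN mice, a log2 fold change of -0.31 (SE 0.33, adjusted p = 0.428, limma). It made up 69.5% to 76.7% of the summed receptor FPKM in sham and 5.85% to 19.9% in AAN mice, where *Cxcr3* led in 3 mice, *Cx3cr1* in 2 and *Ackr3* only in B614. With the median of ratios *Ackr3* was called lower, at -1.07. The endothelial markers, 0 of 5 of which were called (1 lower with the median of ratios), summed to 26.4 to 44.6 FPKM in sham and 41.1 to 58.8 FPKM in AAN mice. *Ccrl2*, which binds chemerin and does not signal, had 0.608 to 1.18 FPKM in sham and 1.28 to 2.36 FPKM in AAN mice, groups that did not overlap, with a log2 fold change of 0.78 under the 2-fold limit (SE 0.23, adjusted p = 0.0105, limma) that turned to -0.37 with quantile normalization. *Ackr2*, a scavenger of inflammatory CC chemokines, rose to 0.507 ± 0.220 FPKM in AAN mice (SD, n = 6), a call lost with quantile normalization. *Ackr1*, the Duffy antigen, and *Ackr4* were under the filter, at AAN means of 0.110 and 0.0754 FPKM.

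Setting each receptor against *Ptprc* in the same mouse shows which kept pace with that 1 leukocyte gene. The log2 fold changes of the 6 leukocyte markers ran from 3.37 (*Lcp1*) to 4.91 (*Cd52*), with *Ptprc* at 3.96. Other markers were not tried as the denominator and could give other results. The ratios of *Cxcr3*, *Cx3cr1*, *Cxcr6*, *Ccr2* and *Xcr1* to *Ptprc* overlapped between the groups. For *Cxcr3* the ratio was 2.35 to 3.99 in sham and 2.39 to 5.35 in AAN mice, and for *Ccr2* it was 0.631 to 1.08 and 0.478 to 1.90. The ratios of *Ccr7* (0 to 0.672 in sham, 0.951 to 3.90 in AAN) and *Ccr1* (0 to 0.488 and 0.679 to 3.07) lay higher in every AAN mouse. Each of the 2 was at 0 in 1 sham mouse, with at most 6.97 (*Ccr7*) and 6.96 (*Ccr1*) fragments in a sham library. *Ccr1* passed the filter through the AAN mice alone. *Ccr8* (0.390 to 0.787 in AAN), *Ccr4* and *Ccr6* were at 0 in all sham mice, which fixes their sham ratios at 0. *Ccr9* was at 0 in each sham mouse but B636 (0.00398 FPKM). AAN ratios of *Ccr4*, *Ccr6* and *Ccr9* were under 0.25. The 0.192 FPKM that 3 fragments allow for *Ccr8* is close to the lowest sham *Ptprc*, 0.171 FPKM. Whether *Ccr8*, *Ccr4*, *Ccr6* and *Ccr9* gained on *Ptprc* cannot be read from these ratios. *Cxcr4* lay lower, at 4.26 to 6.64 in sham and 1.52 to 3.81 in AAN mice, as did *Ackr3* (50.5 to 75.0 and 1.21 to 4.14) and *Ccrl2* (3.08 to 3.93 and 0.204 to 0.467). In sham mice a ratio rests on few *Ptprc* and receptor fragments. On the log2 scale, *Cx3cr1* minus *Ptprc* shifted by 0.62 (SE 0.22, exact two-sided permutation test, p = 0.0333, adjusted p = 0.0429 over 9 pairs), a call lost when any mouse but B607 or B614 was left out, with shifts of 0.53 without B634, 0.56 without B636, 0.60 without H249, 0.58 without A483, 0.66 without B630, 0.54 without B639, 0.66 without B642 and 0.58 without B666. *Ccr2* minus *Ptprc* shifted by 0.04 (SE 0.31, exact two-sided permutation test, p = 0.905, adjusted p = 0.905 over 9 pairs).

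**Figure D5:**
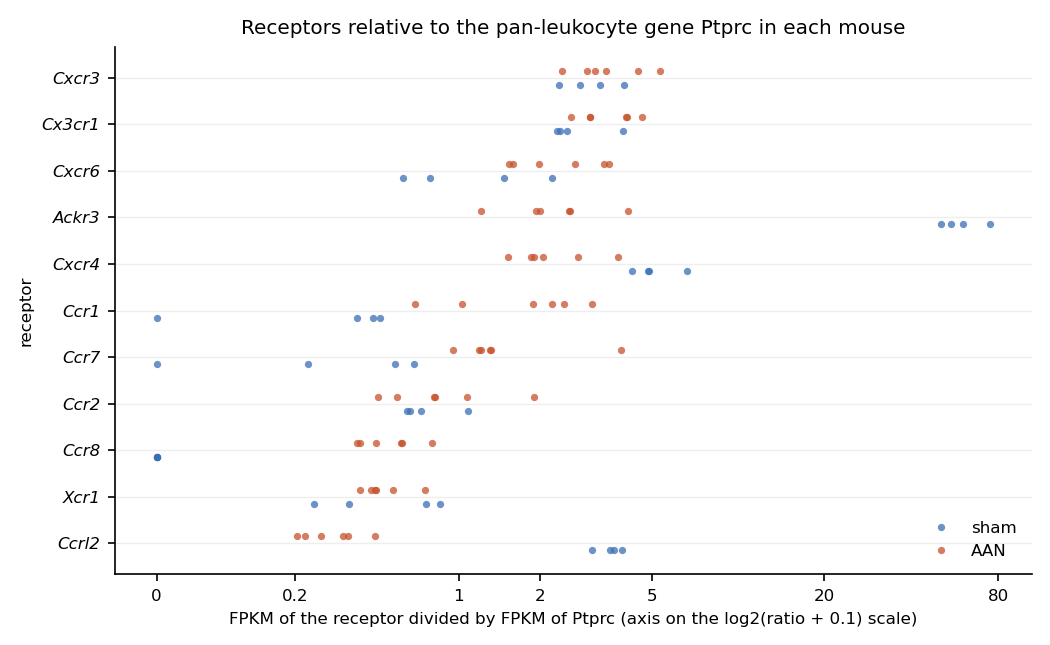
FPKM of the receptors described that have an AAN mean of at least 1 FPKM, divided by the FPKM of *Ptprc* in the same mouse, on an axis of log2(ratio + 0.1), with sham mice in blue and AAN mice in red. *Ackr3*, *Cxcr4* and *Ccrl2* lie lower in every AAN mouse and *Ccr1* and *Ccr7* lie higher. The sham ratios of *Ccr8* are fixed at 0 because it was at 0 in all sham mice, and the other receptors overlap.

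Markers of the cells that carry these receptors or make these ligands were higher in AAN mice. Called by limma were 7 of 7 macrophage markers (summed level 34.3 to 53.1 FPKM in sham, 539 to 1846 FPKM in AAN), 7 of 7 T cell markers (1.25 to 4.72 and 93.4 to 249.02 FPKM), 5 of 5 monocyte markers (4.16 to 6.63 and 31.9 to 84.5 FPKM) and 6 of 6 dendritic cell markers (1.34 to 3.39 and 29.9 to 59.3 FPKM). *Ccr2* and *Xcr1* are themselves on the monocyte and dendritic cell lists. Of 5 NK cell markers 3 were called, with sums of 0.407 to 0.826 and 3.51 to 9.88 FPKM. Of 5 listed eosinophil and mast cell markers 3 were called, with sums of 0.984 to 1.48 and 3.24 to 4.92 FPKM. Most of these sums was *Kit*, with means of 1.28 and 2.76 FPKM. *Epx*, *Prg2* and *Cpa3* were at 0 in sham. Of them *Prg2* was called (AAN mean 0.768 FPKM), while *Epx* and *Cpa3* were under the filter, at AAN means of 0.0363 and 0.0133 FPKM. B614 had the lowest summed level of the AAN mice for the macrophage, T cell, monocyte and dendritic cell lists. With the median of ratios the macrophage calls fell from 7 to 6 and those of eosinophils and mast cells from 3 to 2. With quantile normalization 6 macrophage, 3 monocyte, 5 dendritic cell, 2 NK cell and 1 eosinophil and mast cell markers were called, while the leukocyte and T cell lists had as many calls under both. The part of these cells in the change of any member was not tested.

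The cortex itself also read differently. Markers of injured tubule rose, 5 of 5, from sums of 36.4 to 59.1 FPKM in sham to 245 to 590 FPKM in AAN mice, and 4 of 5 proximal tubule markers fell, from 1599 to 3475 FPKM down to 465 to 1788 FPKM. Fibroblast markers rose, 5 of 5 (14.5 to 19.3 and 91.5 to 204 FPKM), and 1 of 4 lymphatic endothelial markers did, *Pdpn* (2.43 to 5.17 and 15.6 to 37.1 FPKM for the list). Of 3 thick limb and 4 podocyte markers 0 were called, with thick limb sums of 405 to 1576 FPKM in sham and 177 to 1816 FPKM in AAN mice and podocyte sums of 42.6 to 83.2 and 46.9 to 125 FPKM. B614 had the highest AAN sum for the proximal tubule, thick limb and podocyte lists, its proximal tubule sum of 1788 FPKM lay within the sham range, and those of the other AAN mice were 822 FPKM or less. Markers of each of these segments were detected in both groups.

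Genes that act downstream of chemokine receptors were higher as well, as counted by limma over all genes. Of 14 receptor signalling genes 13 rose, led by the leukocyte GTPase *Rac2* (log2 fold change 5.15) and its exchange factor *Dock2* (4.62), with the G protein subunit *Gnb1* at 1.26 and the ubiquitous *Rac1* not called (0.39). Of 12 listed genes of receptor desensitization 11 rose, led by *Rgs16* (5.49) and *Rgs10* (4.11), which shorten G protein signals, with the receptor kinase *Grk2* at 1.37 and the arrestin *Arrb1* not called (1.16). Of the 14 other chemoattractants and receptors 12 rose, led by the complement receptor *C3ar1* (4.18) and the formyl peptide receptor *Fpr2* (3.83), with *S1pr1* at 1.32 and *Mif* not called (-0.04).

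The regulators that control many chemokine genes rose too. Of 10 NF-kappaB subunits and inhibitors 9 did, led by *Relb* (3.97) and the inhibitor *Nfkbie* (3.71), with *Rela* at 1.74 and *Nfkbib* under the 2-fold limit (0.68). Of 9 genes of the interferon gamma axis all 9 rose, led by the feedback inhibitors *Socs3* (5.17) and *Socs1* (3.76), with the kinases *Jak2* and *Jak1* at 1.83 and 1.04. Of 8 endothelial adhesion molecules, which arrest leukocytes after chemokine signals, 4 rose, led by *Vcam1* (5.49), which is also on the list of injured tubule markers, and *Icam1* (3.30), with *Cdh5* (0.77) and *Icam2* (0.41) not called. These lists lost 0 to 2 calls each with the median of ratios, where *Rac1*, *Nfkbib* and *Icam2* turned negative, and 1 to 3 with quantile normalization. The medians of these 6 lists were 1.49 to 3.42 on the log2 scale, against 0.75 over all genes.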

How the data were processed

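Kidney cortex RNA of 4 sham and 6 AAN mice at day 28 was measured by paired-end RNA-seq. The authors filtered the reads, mapped them to GRCm38.p4 with Hisat2 2.0.4 and made gene values with Stringtie 1.3.0, and the deposited values are these FPKM, 1 file per mouse with the same 21792 Ensembl genes and no further scaling between mice. The annotation release and the use of strand are not given in the sources used here. The study named edgeR as its test, with no word on its input, and the deposited FPKM are not counts, so limma 3.58.1 in R 4.3.3 (trend and robust) took its place.

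Symbols and positions came from GENCODE M21 (GRCm38), which named 21665 genes, and promoters from RefSeq (GRCm38.p6). The members and all gene lists were chosen with earlier results of these data known. Genes with a mean of 0.1 FPKM or more were fitted on log2(FPKM + 0.1), and Benjamini-Hochberg adjustment ran across every gene fitted. For the members named in detail, each sham value is given with the lowest, median and highest AAN value. They are 28 called members with a mean of 5 FPKM or more in the higher group. To them were added those lower at an adjusted p of 0.05 and those of the gene pairs. Values of 1 member, which is included in the counts, are not reported here. Of each pathway list the 2 highest and 2 lowest changes are named. Of 10 pairs, 9 could be made, and the pair of *Ccl19* and *Ccl21a* was not analysed here. Pairs were tested by exact permutation.

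Depth was recovered from values under 0.3 FPKM. In genes with 1 transcript 94.8% to 97.1% of these were whole fragments within 0.05, against 13.6% to 14.9% in genes with several, so counts were not rebuilt. Fragment limits cover counting error only. The labels do not say whether mice shared a litter or batch. The fit and the permutation test were tested on simulated data. Alternatives were a pseudocount of 1 or of 0.01, dropping the filter or raising it to 1 FPKM, 3 scalings, limma without trend or robust, no fold limit, each mouse left out, and the mice with B tags alone. Scripts ran in Python 3.11.15 with scipy 1.17.1, pandas 2.3.3, matplotlib 3.10.9 and numpy 2.4.6.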

Additional observations from a re-analysis of the deposited data

Results flagged for a closer look

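In each group, a sample was picked out when the distance from the closest of the other mice exceeded Dixon's 95% limit, on the FPKM or the log2 scale, over 122 groups of values of the named members and of depth. This gave 8 samples, where chance alone gives about 6.1. Of these, 4 were AAN mouse B614, each on the log2 scale. *Ccl8* was at 86.8 FPKM in B614 and at 336 to 606.5 FPKM in the other AAN mice. *Ccl17* was at 7.70 FPKM there, against 38.0 to 89.1 FPKM, *Ccl12* at 7.36 FPKM, against 22.0 to 40.5 FPKM, and *Pf4* at 4.17 FPKM, against 15.5 to 22.3 FPKM. Among sham mice, B634 was low on the log2 scale for *Ccl5* (0.841 FPKM, others 1.77 to 1.999) and *Cxcr3* (0.401 FPKM, others 0.911 to 1.05). AAN mouse B639 was high for *Ccr7* on the FPKM scale (16.3 FPKM, others 5.41 to 9.16) and had the shallowest library (13.29 M fragments, other AAN mice 15.5 to 16.45 M).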

How the results depend on the processing

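Over the 19 alternatives with a test, 28 of the 30 members named in detail kept their direction and their side of the limits. The exceptions were *Cx3cl1*, at 0.98 with the median of ratios, and *Cxcl12*, called lower at -1.51 with the median of ratios and at -1.81 with quantile normalization. Members called higher were 35 at pseudocount 1 and 34 among genes averaging 1 FPKM or more, against 47, and 38 to 49 under the other settings. Members called lower were 2 with each of these scalings and 1 with no fold limit, against 0. Over all genes, those called higher numbered 2909 at pseudocount 1, 4025 among genes averaging 1 FPKM or more, 3261 with the median of ratios, 2232 with quantile normalization and 9482 with no fold limit. Those called lower numbered 1801 with the median of ratios, 2157 with quantile normalization, 332 at the same FPKM total and 1027 with no fold limit. Fewer genes were tested with the higher filter; for the others the cause was not tested.

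Of the differences within a mouse, *Cxcl9* minus *Cxcl10* was 1.04 with B tags alone and 0.89 to 1.49 with 1 mouse left out. *Cxcl1* minus *Cxcl2* was 0.98 with a pseudocount of 0.01, and *Ccr2* minus *Cx3cr1* was -1.302 with a pseudocount of 1, where it passed the limit. *Ccr2* minus *Ptprc*, not past the limit in any of these, was -0.12 with a pseudocount of 1, -0.088 with B tags alone and -0.19 to 0.20 with 1 mouse left out. *Cx3cr1* minus *Ptprc* was 0.40 with a pseudocount of 0.01, 0.56 with B tags alone and 0.53 to 0.80 with 1 mouse left out. No paired analysis was possible because sham and AAN mice carry different tags. Depth limits members near 0 in sham mice, whose fold changes follow the pseudocount.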
